A study of Mus musculus with 16 samples.

Results

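The genes described here are 9 regulators of the multiciliated cell fate, namely Gmnc, Mcidas, Trp73, Myb, Ccno, Deup1, Foxj1, Rfx2 and Rfx3. They were taken by symbol from the 49315 gene identifiers counted, and 9 of 9 had a value in every library and passed the filter on low counts that left 15993 genes to test. RNA was sequenced from MTECs, primary cultures of mouse tracheal epithelial cells grown at an air-liquid interface, where basal cells give rise to ciliated and secretory cells. Cultures came from male (M) and female (F) mice, either WT or labelled KO for Lman1, which encodes a cargo receptor of the early secretory pathway, and were left untreated (naive) or kept overnight with house dust mite extract (HDM) at 20 µg/ml. This gave 8 groups of 2 libraries, 16 libraries in all: F WT naive, F WT HDM, F KO naive, F KO HDM, M WT naive, M WT HDM, M KO naive and M KO HDM. The mice shared the C57BL/6J background, WT mice were littermates of the KO mice, tracheas were pooled for culture, and inserts carried a basement membrane laid down by 3T3 fibroblasts. The age of the donors is not given in the sources used here. Since 1 pool can serve several cultures, p-values here measure the spread between these libraries, which may be partly technical.

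Multiciliated cells arise when Notch signalling is low. GMNC, a geminin-like coiled-coil protein, starts the programme, MCIDAS (multicilin) follows it, and both act with E2F4, E2F5 and DP1 to switch on genes for centriole amplification. CCNO and DEUP1 serve the deuterosome, the structure on which most basal body centrioles are built, while MYB and TAp73, a product of Trp73, act early in the same transcriptional cascade. FOXJ1 and the RFX factors RFX2 and RFX3 then drive the genes of the motile axoneme, the RFX factors by binding X-box elements.

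The sequences before the start of 5 of these genes are shown because these genes had the lowest counts of all in HDM-treated F WT cultures and because such windows are where the factors named above could bind. RefSeq (GRCm38.p6) gave windows for 8 of the 9 genes, 11 windows in all, of which the 250 bases before the transcription start were read. Capitals mark matches, on either strand, to an X-box half-site (GTTGCC), an E2F motif (GGCGGGA), a forkhead motif (GTAAACA) or a MYB motif (TAACGG).
Gmnc (chr16:26991653-26991902, minus strand): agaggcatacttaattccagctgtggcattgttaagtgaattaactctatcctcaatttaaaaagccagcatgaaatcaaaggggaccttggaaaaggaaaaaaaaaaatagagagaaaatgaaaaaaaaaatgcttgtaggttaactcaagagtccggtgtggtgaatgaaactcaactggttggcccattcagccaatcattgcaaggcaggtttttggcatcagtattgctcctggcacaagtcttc
Mcidas (chr13:112993618-112993867, plus strand): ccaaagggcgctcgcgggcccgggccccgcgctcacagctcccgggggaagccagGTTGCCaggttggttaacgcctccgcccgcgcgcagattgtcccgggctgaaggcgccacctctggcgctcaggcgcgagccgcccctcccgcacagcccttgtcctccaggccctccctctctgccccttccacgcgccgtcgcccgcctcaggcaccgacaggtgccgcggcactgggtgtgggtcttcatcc
Ccno (chr13:112987552-112987801, plus strand): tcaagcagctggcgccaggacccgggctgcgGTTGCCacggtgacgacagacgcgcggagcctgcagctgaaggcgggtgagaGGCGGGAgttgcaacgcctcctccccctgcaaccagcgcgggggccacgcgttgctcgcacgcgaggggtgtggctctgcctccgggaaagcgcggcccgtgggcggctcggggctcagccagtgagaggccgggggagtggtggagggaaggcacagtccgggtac
Trp73 (chr4:154139876-154140125, minus strand): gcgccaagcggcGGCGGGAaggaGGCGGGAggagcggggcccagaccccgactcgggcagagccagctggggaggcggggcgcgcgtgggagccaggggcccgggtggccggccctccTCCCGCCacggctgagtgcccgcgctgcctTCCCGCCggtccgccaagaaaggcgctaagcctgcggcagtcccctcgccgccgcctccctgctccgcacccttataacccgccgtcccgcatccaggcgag
Deup1 (chr9:15627847-15628096, minus strand): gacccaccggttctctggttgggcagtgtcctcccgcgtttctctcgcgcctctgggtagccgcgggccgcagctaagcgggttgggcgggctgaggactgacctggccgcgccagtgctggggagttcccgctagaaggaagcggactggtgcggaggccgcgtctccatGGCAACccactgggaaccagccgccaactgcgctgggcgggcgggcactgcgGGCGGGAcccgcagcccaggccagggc
The X-box half-site was in 4 of the 11 windows, from Mcidas, Ccno, Deup1 and Rfx2, and it occurs in 10.4% of all 32851 windows of this length. E2F matches stood in 5 of the 11 windows, from Ccno, Deup1, Trp73, Myb and Rfx2, against 9.75% of all windows, and the printed window of Trp73 held 4. These 5 windows held 72% to 81.2% G and C, against a median of 52.4% over all windows, and the E2F letters are nearly all G and C. No window of these genes held the forkhead letters (3.17% of all windows) or the MYB letters (2.18%), which says only that these letters are not in these 250 bases. Matches of different motifs did not overlap in the printed windows. Gmnc, Trp73 and Deup1 each had a further window, not printed, that held no match to any of these motifs. Ccno and Mcidas are neighbours on chromosome 13 of GRCm38, both on the plus strand, with Ccno from 112987802 to 112990777 and Mcidas from 112993845 to 113000394. Cdc20b, another gene of centriole amplification, follows from 113035111 to 113091195. All 9 genes are annotated as protein coding. Exons of Myb and Trp73 overlap antisense genes over 6.26% and 5.06% of their exon bases, but these antisense genes held 1 and 0 counts over all libraries. Counts per gene do not separate the products of the alternative starts of Trp73.

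Some features of the libraries bear on every comparison. Totals ran from 21860698 to 43442188 counts per library, so that 3 counts, taken here as the floor, corresponded to 0.0674 to 0.142 CPM (counts relative to the library total, the usual CPM unit, scaled with TMM factors over all libraries). Lman1, the targeted gene, stood at 121 ± 14.3 CPM (SD, n = 8) in WT libraries. It did not fall to a like level in every library labelled KO: both F KO naive libraries had 12.8 CPM and M KO naive replicate 1 had 14.2, but M KO naive replicate 2 had 63.4, the M KO HDM libraries had 65 and 66, and the F KO HDM libraries had 66.6 and 78.1. Thus 5 of the 8 libraries labelled KO held over 20% of the WT mean, and genotype is written as a label throughout. Summed CPM of 10 stromal markers reached 717 in F WT naive replicate 2, 323 and 1064 in F WT HDM replicates 1 and 2, and 14.1 to 260 in the other 13 libraries. Among cell type markers, basal and secretory genes were abundant, with naive sums of 8701 to 13368 and 19903 to 34951 CPM, whereas Scgb1a1, the usual club cell marker, stayed between 0.0474 and 3.75 CPM. Ciliated cell transcripts were present but scarce, for example 1.94 to 11.4 CPM for the axonemal dynein gene Dnah5 in naive libraries. Fewer cells of a type and less RNA per cell cannot be told apart in these bulk libraries.

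**Figure D1:**
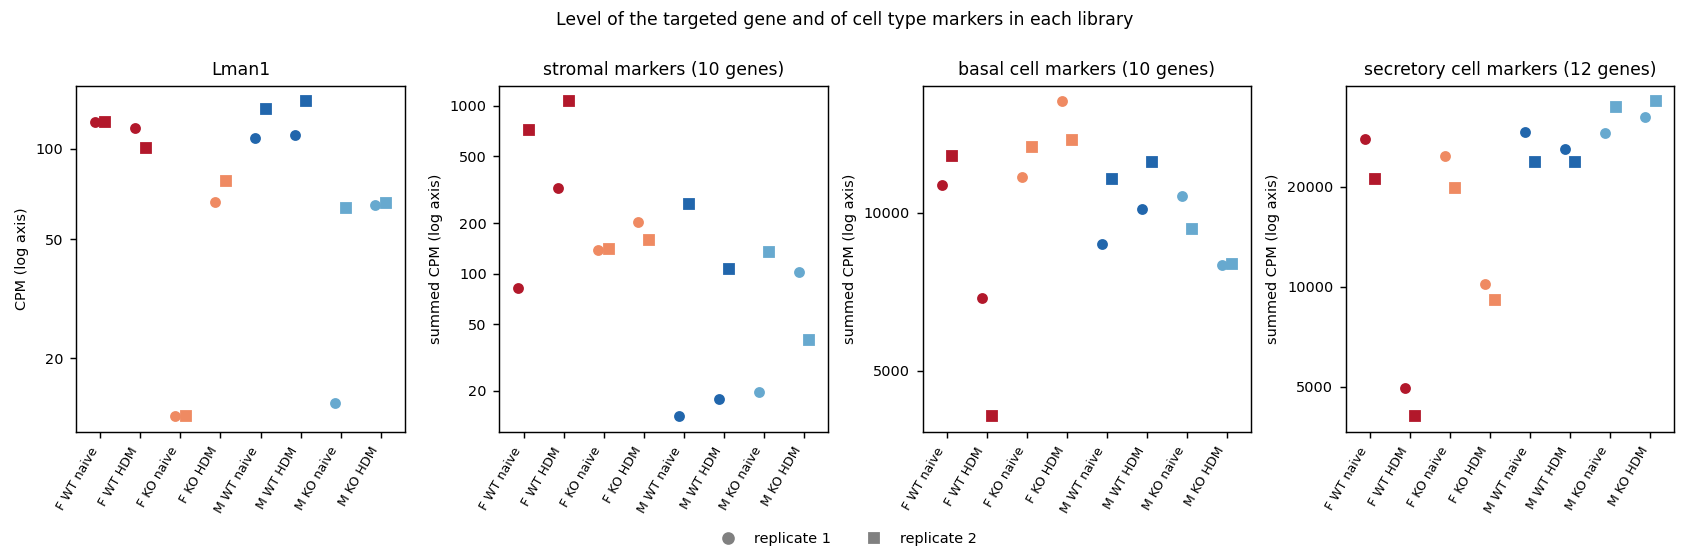
TMM-scaled CPM of Lman1 and summed CPM of stromal, basal cell and secretory cell markers (log axes) in each library, with circles for replicate 1, squares for replicate 2 and colours for sex and labelled genotype. Lman1 was near 13 to 14 CPM in 3 of the 8 libraries labelled KO, and the highest stromal sum, 1064 CPM, was in F WT HDM replicate 2.

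In naive cultures the 9 genes spanned a wide range of levels. Per kilobase of exon, Foxj1 led with 29.6 ± 7.51 CPM (SD, n = 8), followed by Ccno at 3.06 ± 1.17, Rfx2 at 1.72 ± 0.189, Deup1 at 1.62 ± 0.71, Mcidas at 1.39 ± 0.659, Trp73 at 1.38 ± 0.511, Myb at 1.26 ± 0.57, Rfx3 at 1.24 ± 0.175 and Gmnc at 0.432 ± 0.121. The 7 genes between Foxj1 and Gmnc differed from their neighbours among them by less than the sum of both SDs, while Foxj1 and Gmnc stood apart by more. Foxj1 stayed first and Gmnc last in all 8 groups by this measure.

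Gmnc, which stands at the head of the cascade, had the lowest level per kilobase. Its level was 2.22 and 2.47 CPM in the F WT naive libraries and 0.0416 and 0 CPM in the F WT HDM libraries, which is 1 count and 0 counts. In F cultures labelled KO it was 2.05 and 1.42 CPM when naive and 0.363 and 0.358 CPM with HDM. Both HDM groups of F cultures thus lay below every other library, where Gmnc ranged from 1.42 to 3.51 CPM. M cultures had 3.51 and 2.52 CPM (WT naive), 1.92 and 1.61 (WT HDM), 3.41 and 2.24 (KO naive) and 2.1 and 1.58 (KO HDM), so that HDM libraries were lower than naive ones within each labelled genotype of M cultures. With 1 count left, the F WT HDM level was 0.933% of the naive level by counts (95% exact interval 0.0235% to 5.27%), or 107-fold lower (19 to 4258). These intervals cover counting error only.

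Mcidas encodes multicilin, which pairs with E2F factors. F WT naive libraries had 2.83 and 3.6 CPM, and the F WT HDM libraries had 0 and 0.332 CPM, from 0 and 7 counts. F cultures labelled KO had 3.05 and 2.82 CPM when naive and 0.363 and 0.644 CPM with HDM. As for Gmnc, the 4 libraries of HDM-treated F cultures were the lowest of all 16. In M cultures the replicates stood far apart: 5.27 and 1.65 CPM in WT naive, 4.28 and 1.51 in WT HDM and 5.79 and 1.37 in KO naive, but 1.18 and 1.72 in KO HDM.

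Trp73 encodes p73, whose TA form is needed for multiciliogenesis. It was at 5.7 and 5.17 CPM in F WT naive libraries and at 0.375 and 0.332 CPM in F WT HDM libraries, 9 and 7 counts. F cultures labelled KO kept 3.75 and 3.4 CPM with HDM, against 5.61 and 5.54 CPM when naive. The F WT HDM libraries therefore stood alone, about an order of magnitude under the F KO HDM libraries. M libraries held 11.3 and 8.24 CPM (WT naive), 11.9 and 8.9 (WT HDM), 12.5 and 6.86 (KO naive) and 5.42 and 6.5 (KO HDM).

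Myb, a transcription factor gene used by progenitors as they leave the cycle for the ciliated fate, had 8.61 and 9.82 CPM in F WT naive libraries and 0.957 and 0.71 CPM with HDM. In F cultures labelled KO the naive libraries had 10.3 and 10.4 CPM and the HDM libraries 4.2 and 3.9 CPM. M libraries had 18.1 and 6.8 CPM (WT naive), 13 and 8.28 (WT HDM), 20 and 5.98 (KO naive) and 5.96 and 5.64 (KO HDM). F WT HDM libraries were again lowest, and F KO HDM libraries came next.

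Ccno and Deup1, the genes closest to centriole production, shared one pattern. For Ccno the F WT libraries held 7.08 and 9.53 CPM when naive and 0.416 and 0.237 CPM with HDM, and F libraries labelled KO held 6.67 and 8.67 CPM when naive and 0.888 and 1.43 CPM with HDM. Ccno in M libraries was 10.9 and 4.21 CPM (WT naive), 7.94 and 4.08 (WT HDM), 11.9 and 3.61 (KO naive) and 3.1 and 3.79 (KO HDM). Every HDM-treated F library lay below every other library for Ccno. Deup1 had 4.65 and 6.45 CPM in F WT naive libraries, 0.0832 and 0.189 CPM (2 and 4 counts) in F WT HDM, 5.41 and 5.95 in F KO naive and 0.404 and 1.07 in F KO HDM. M libraries had 7.69 and 2.83 CPM of Deup1 (WT naive), 5.48 and 2.94 (WT HDM), 8.45 and 1.45 (KO naive) and 1.64 and 2.24 (KO HDM). The ranges of HDM-treated F libraries and all others did not overlap for Deup1 either.

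Foxj1, the master gene of motile ciliogenesis, did not follow them in F WT cultures. Its level was 69.5 and 89.4 CPM in F WT naive libraries and 79.1 and 86.6 CPM in F WT HDM libraries. By contrast it was 76.7 and 90.3 CPM in F KO naive and 44.8 and 47 CPM in F KO HDM libraries. M libraries had 97.5 and 46.6 CPM (WT naive), 96.4 and 55.7 (WT HDM), 97.4 and 53.1 (KO naive) and 48.4 and 46.8 (KO HDM). The F WT HDM libraries, nearly empty of Gmnc and Mcidas, thus lay within the range of the naive libraries for Foxj1, and the HDM libraries labelled KO of both sexes lay near the low end.

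Rfx2 and Rfx3 encode DNA-binding factors for X-box promoters. Rfx2 was at 11.6 and 13 CPM in F WT naive, 9.2 and 8.15 in F WT HDM, 12.5 and 14.2 in F KO naive and 12 and 14.4 in F KO HDM libraries, and its M libraries ran from 9.33 to 15.2 CPM. For Rfx3 the values were 12.8 and 12.4 CPM in F WT naive, 8.24 and 5.21 in F WT HDM, 13.6 and 10.6 in F KO naive and 10.4 and 12.9 in F KO HDM, with 11.5 to 17.2 CPM in M libraries. F WT HDM libraries were the lowest of the 16 for both genes. Both F WT HDM libraries thus lay below all other libraries for 8 of the 9 genes, as they did for 20.2% of all genes tested, and all 4 HDM-treated F libraries lay below the other 12 for 6 of the 9 (9.9% of all genes).

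**Figure D2:**
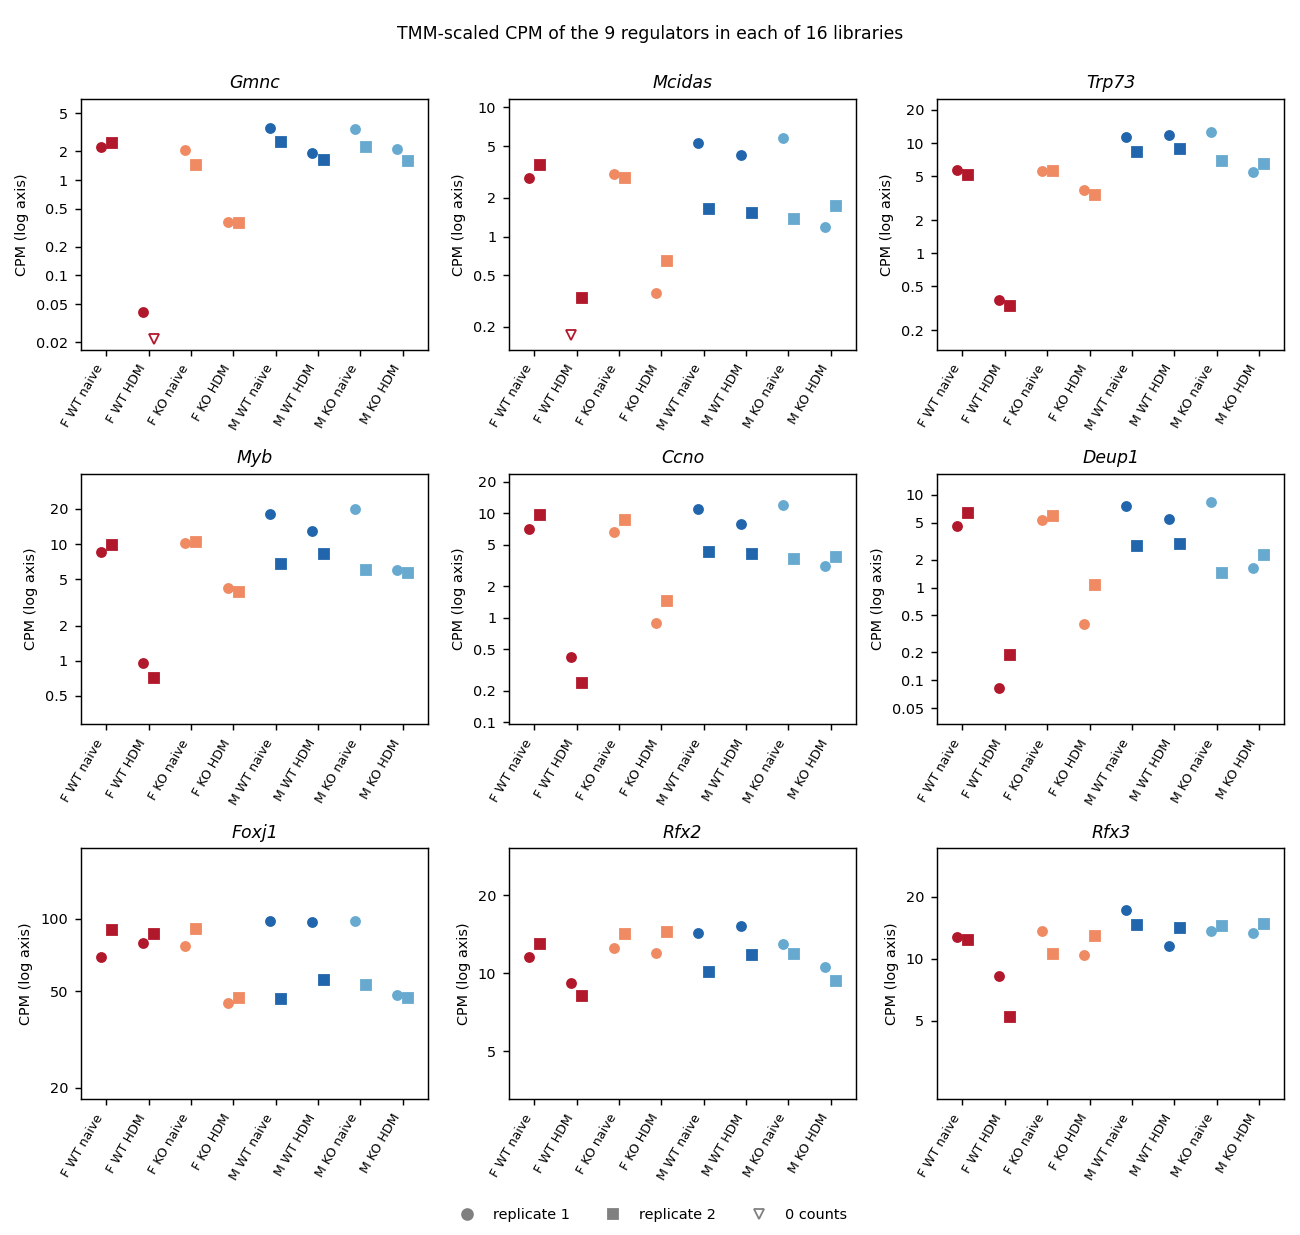
TMM-scaled CPM (log axis) of each of the 9 genes in the 16 libraries, with circles for replicate 1, squares for replicate 2 and open triangles at the lower edge for libraries with 0 counts. F WT HDM libraries were lowest for 8 genes, as they were for 20.2% of all genes tested, and lay within the naive range for Foxj1, at 79.1 and 86.6 CPM.

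The first question of the design is how HDM changed each kind of culture. In F WT cultures, HDM lowered 8 of the 9 genes at an adjusted p under 0.05 and raised none, where 22.4% of all genes tested were lower and 20.6% higher. The median log2 fold change of the 9 was -3.92, against -0.02 over all genes. By the quasi-likelihood test of edgeR, adjusted after Benjamini and Hochberg, log2 fold changes were -3.92 for Trp73 (SE 0.36, adjusted p = 8.88e-06), -4.64 for Ccno (SE 0.74, adjusted p = 0.000439), -5.34 for Deup1 (SE 1.02, adjusted p = 0.00145) and -3.45 for Myb (SE 0.62, adjusted p = 0.000957). Mcidas fell by 4.32 (SE 1.07, adjusted p = 0.00692 in edgeR), but rests on 7 counts, all in F WT HDM replicate 2, and ran from -9.64 to -3.27 over the alternatives. The fitted value for Gmnc, -6.49 (adjusted p = 9.24e-06 in edgeR), rests on 1 count and is no bound. Rfx3 fell by 0.90 on the log2 scale (SE 0.21, adjusted p = 0.00481 in edgeR) and Rfx2 by 0.50 (SE 0.18, adjusted p = 0.0428). Foxj1 differed by 0.06 (SE 0.34, adjusted p = 0.908 in edgeR), a difference within the spread of the libraries. In both F WT groups replicate 2 held the higher stromal sum (717 and 1064 CPM). Without those 2 libraries 6 genes were called, and Rfx2 and Rfx3 were not (log2 fold changes -0.34 and -0.63).

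In F cultures labelled KO, HDM lowered 3 of the 9 genes, where 5.77% of all genes were lower and 4.63% higher. These were Gmnc (log2 fold change -2.26, SE 0.38, adjusted p = 0.00389 in edgeR), Ccno (-2.71, SE 0.61, adjusted p = 0.0173) and Deup1 (-2.92, SE 0.78, adjusted p = 0.0356). By counts Gmnc was 4.86-fold lower (95% exact interval 2.98 to 8.36), Ccno 6.49-fold (4.98 to 8.58) and Deup1 7.47-fold (5.39 to 10.6). The others were not called: Mcidas at -2.52 (SE 0.88, adjusted p = 0.0957 in edgeR), Myb at -1.35, Foxj1 at -0.86 and Trp73 at -0.64, with Rfx2 and Rfx3 at -0.02 and -0.06. At an unadjusted p under 0.05, 4129 of all 15993 genes passed, and 7 of the 9 did. The number called was 1 without either F KO naive replicate or without F KO HDM replicate 1, 0 without F KO HDM replicate 2, and 7 when only the 4 compared libraries were fitted. Fitting only the compared libraries called 2804 of 14969 genes, against 1664 of 15993 in the main fit. The libraries of this comparison also differed in Lman1, at 12.8 and 12.8 CPM when naive and 66.6 and 78.1 CPM with HDM, and its part in the result was not tested.

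In M cultures none of the 9 genes was called by edgeR, in WT or in those labelled KO, where 0% of all genes were called in each. At an unadjusted p under 0.05 there was 1 gene in M WT cultures, Gmnc (log2 fold change -0.77, SE 0.32, adjusted p = 0.936 in edgeR), and there were 2 in M cultures labelled KO, Trp73 (-0.69, SE 0.26) and Myb (-1.16, SE 0.50), both with adjusted p = 0.781 in edgeR. Of all 15993 genes, 665 (WT) and 857 (labelled KO) passed that unadjusted threshold. DESeq2 called 0 of the 9 in each. The M replicates stood apart. In M WT naive, M WT HDM and M KO naive cultures, replicate 1 was higher than replicate 2 for 8 of the 9 genes, and for Rfx3 in M WT naive cultures only, by a factor of 2.67, 1.57 and 3.34 for Myb and of 2.72, 1.87 and 5.83 for Deup1. In the same 3 groups replicate 1 had stromal sums of 14.1 to 19.7 CPM and replicate 2 of 107 to 260 CPM, and in M KO naive cultures the replicates also differed in Lman1, 14.2 and 63.4 CPM. Their part in this spread was not tested.

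**Figure D3:**
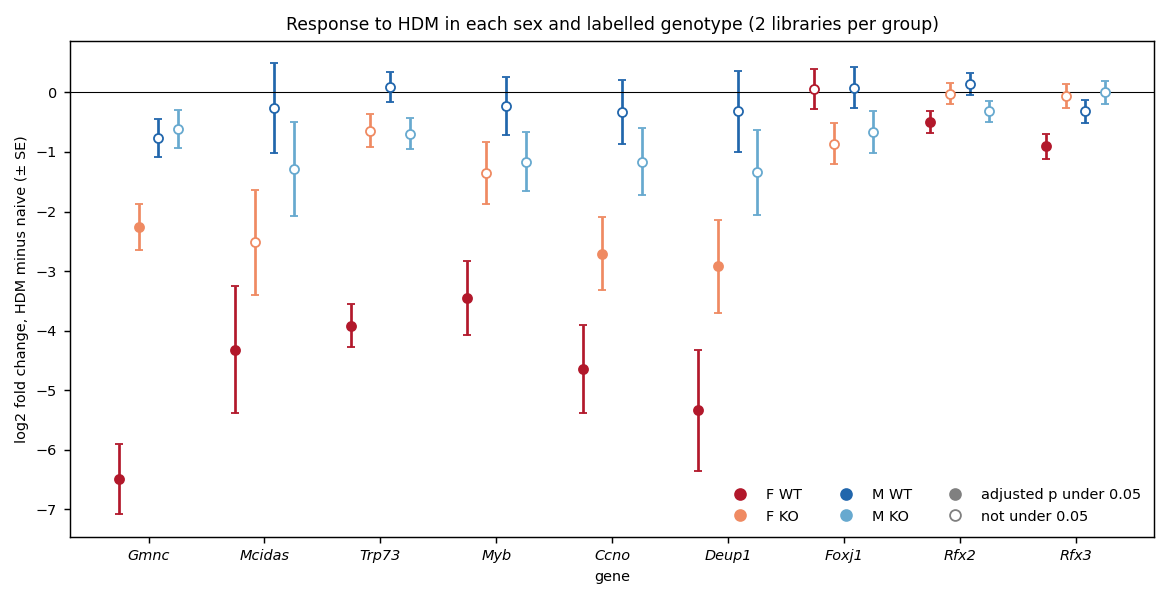
Log2 fold change, HDM minus naive, of each gene in F WT, F KO, M WT and M KO cultures, with bars for 1 standard error, derived from the F statistic, and filled points for an adjusted p under 0.05 (edgeR). Filled points are 8 genes in F WT and 3 genes in F KO cultures, all below 0; Foxj1 in F WT cultures lies at 0.06.

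Whether the response to HDM differed between the sexes was tested as an interaction. In WT cultures 6 of the 9 genes responded differently, with a more negative response in F cultures, where 12.8% of all genes were called in that direction. The difference in log2 response, F minus M, was -4.02 for Trp73 (SE 0.44, adjusted p = 0.000115 in edgeR), -4.31 for Ccno (SE 0.92, adjusted p = 0.00629), -3.23 for Myb (SE 0.79, adjusted p = 0.0126), -5.02 for Deup1 (SE 1.26, adjusted p = 0.0141) and -4.07 for Mcidas (SE 1.34, adjusted p = 0.046). The call for Mcidas was made in 11 of 24 alternatives, with adjusted p from 1.59e-12 to 0.14 and values from -9.38 to -3.02. For Gmnc it was -5.71 (adjusted p = 0.000288 in edgeR), which rests on 1 count in F WT HDM libraries. Rfx2 (-0.65), Rfx3 (-0.58) and Foxj1 (-0.02) were not called. Without the 2 F WT libraries of highest stromal sum, 2 genes were called. In cultures labelled KO none of the 9 was called (3.56% of all genes were, in either direction), 1 passed an unadjusted p under 0.05 (Gmnc at -1.65), and DESeq2 called 0. Of all 15993 genes, 2972 passed that unadjusted threshold.

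Whether the response of F cultures differed by labelled genotype was tested in the same way. Trp73 and Gmnc were called, with a less negative response in F cultures labelled KO: the difference in log2 response, KO minus WT, was 3.28 for Trp73 (SE 0.45, adjusted p = 0.00181 in edgeR) and 4.23 for Gmnc (adjusted p = 0.00974), where 6.16% of all genes were called in that direction. Myb (2.10), Deup1 (2.42), Ccno (1.92), Mcidas (1.80) and Rfx3 (0.84) had the same sign and were not called, nor was Foxj1 at -0.92 (SE 0.49, adjusted p = 0.244 in edgeR). Without F WT HDM replicate 2 the count was 1, and without it and F WT naive replicate 2 it was also 1. In M cultures none of the 9 was called by edgeR (0% of all genes), 0 passed an unadjusted p under 0.05 and DESeq2 called 0. Of all 15993 genes, 1388 passed that unadjusted threshold. Lman1 itself was called in the F comparison of responses, at 2.67 (SE 0.64, adjusted p = 0.0238 in edgeR). In F cultures labelled KO it had 12.8 CPM in both naive libraries and 66.6 and 78.1 CPM with HDM. The label therefore did not mark a like level of Lman1 in naive and HDM-treated F cultures, and its part in the result was not tested.

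The comparison of HDM-treated F cultures labelled KO with WT rests on the same 2 F WT HDM libraries. Here 5 genes were higher in the cultures labelled KO, where 14.9% of all genes were: Trp73 at a log2 difference of 3.32 (SE 0.36, adjusted p = 0.000135 in edgeR), Gmnc at 3.80 (adjusted p = 0.00371), Myb at 2.27 (SE 0.63, adjusted p = 0.0202), Rfx3 at 0.79 (SE 0.21, adjusted p = 0.0163) and Rfx2 at 0.60 (SE 0.18, adjusted p = 0.0295). Foxj1 pointed the other way and was not called, at -0.85 (SE 0.35, adjusted p = 0.0894 in edgeR), with 44.8 and 47 CPM in cultures labelled KO against 79.1 and 86.6 in WT. Ccno (1.81), Deup1 (2.45) and Mcidas (1.67) were not called by edgeR. DESeq2 called 7 of the 9, and 4767 of all 15993 genes in either direction. The count was 2 without F WT HDM replicate 2 or without F KO HDM replicate 2, and 1 without the 2 F WT libraries of highest stromal sum. Lman1 in these 4 libraries was at 101 and 117 CPM in WT and 66.6 and 78.1 CPM in those labelled KO. Its log2 difference was not called, at -0.59 (SE 0.44, adjusted p = 0.331 in edgeR).

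Without HDM, no difference by labelled genotype passed the test: none of the 9 was called by edgeR in F or M naive cultures (0% of all genes in each), 0 passed an unadjusted p under 0.05 in either, and DESeq2 called 0. Of all 15993 genes, 203 (F) and 867 (M) passed that unadjusted threshold. The targeted gene Lman1 was itself not called in naive cultures, at a log2 difference of -3.26 in F (SE 0.48, adjusted p = 0.403 in edgeR). In M naive cultures it was at -1.65 (SE 0.45, adjusted p = 0.879 in edgeR). These tests can thus miss a large difference, and the absence of calls does not show that the 9 genes were alike. In HDM-treated M cultures edgeR called none of the 9 either (0% of all genes, though 562 genes were called by DESeq2 and 480 with the replicate block), while 2 passed an unadjusted p under 0.05, Trp73 (-0.80) and Rfx2 (-0.44), both lower in those labelled KO, and DESeq2 called 0 of the 9. Of all 15993 genes, 2897 passed that unadjusted threshold, a share near that of the 9.

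Sex differences followed the same split. In naive cultures none of the 9 was called by edgeR, where 0.1% of all genes were called in WT and 0.188% in cultures labelled KO, and DESeq2 called 0 in each. Trp73 alone of the 9 did not overlap between the sexes, as 6.48% of all genes did not with F below M. It had 5.17 to 5.7 CPM in the 4 naive F libraries and 6.86 to 12.5 CPM in the 4 naive M libraries; its log2 difference, M minus F, was 0.85 in WT (SE 0.26, adjusted p = 0.25 in edgeR) and 0.79 in those labelled KO (SE 0.26, adjusted p = 0.308). It was the 1 gene at an unadjusted p under 0.05 in WT, and with Gmnc (0.69) 1 of 2 in cultures labelled KO. Of all 15993 genes, 1969 (WT) and 1585 (labelled KO) passed that unadjusted threshold. With HDM, 8 genes were higher in M WT than in F WT cultures, where 21.3% of all genes were, with log2 differences of 4.86 for Trp73 (SE 0.35, adjusted p = 2.02e-06 in edgeR), 4.94 for Deup1 (SE 1.03, adjusted p = 0.00262), 4.17 for Ccno (SE 0.74, adjusted p = 0.000971), 4.17 for Mcidas, 3.66 for Myb, 0.92 for Rfx3 and 0.64 for Rfx2. Gmnc, again from 1 count, had 6.08. Foxj1 differed by -0.12 (SE 0.35, adjusted p = 0.8 in edgeR). Among HDM-treated cultures labelled KO, Gmnc alone was called, 2.34 higher in M (SE 0.38, adjusted p = 0.00122 in edgeR), where 12.9% of all genes were higher. The count was 3 without either M KO naive replicate. These comparisons share libraries with those of the HDM response and are not independent of them.

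Counts per 1000 counts of Foxj1 in the same library need no scaling between libraries and set the early regulators against the late one. In F WT naive libraries 1000 counts of Foxj1 came with 40.8 and 40.2 counts of Mcidas, 31.9 and 27.7 of Gmnc, 102 and 107 of Ccno and 66.9 and 72.2 of Deup1. With HDM the same F WT cultures had 0 and 3.83 of Mcidas, 0.526 and 0 of Gmnc, 5.26 and 2.73 of Ccno and 1.05 and 2.19 of Deup1. F cultures labelled KO lay between, with 8.1 and 13.7 of Mcidas, 8.1 and 7.62 of Gmnc, 19.8 and 30.5 of Ccno and 9 and 22.8 of Deup1 under HDM. For Trp73 and Myb, per 1000 counts of Foxj1, F WT HDM libraries had 4.73 and 3.83 of Trp73 and 12.1 and 8.2 of Myb, and F KO HDM libraries had 83.7 and 72.4 of Trp73 and 93.6 and 83 of Myb. For Trp73 the F KO naive libraries had 61.4 and 73.2. Foxj1 itself was at 55% of its naive mean CPM in F KO HDM and at 104% in F WT HDM cultures, which raises the F KO HDM values on this scale, and Trp73 in F KO HDM cultures was at 64.1% of its naive mean CPM. The M replicates came closer on this scale for Deup1 in M WT naive libraries (78.8 and 60.6 per 1000 counts of Foxj1, against 7.69 and 2.83 CPM) but stayed apart in M KO naive libraries (86.8 and 27.2). This scale was chosen after seeing the data.

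**Figure D4:**
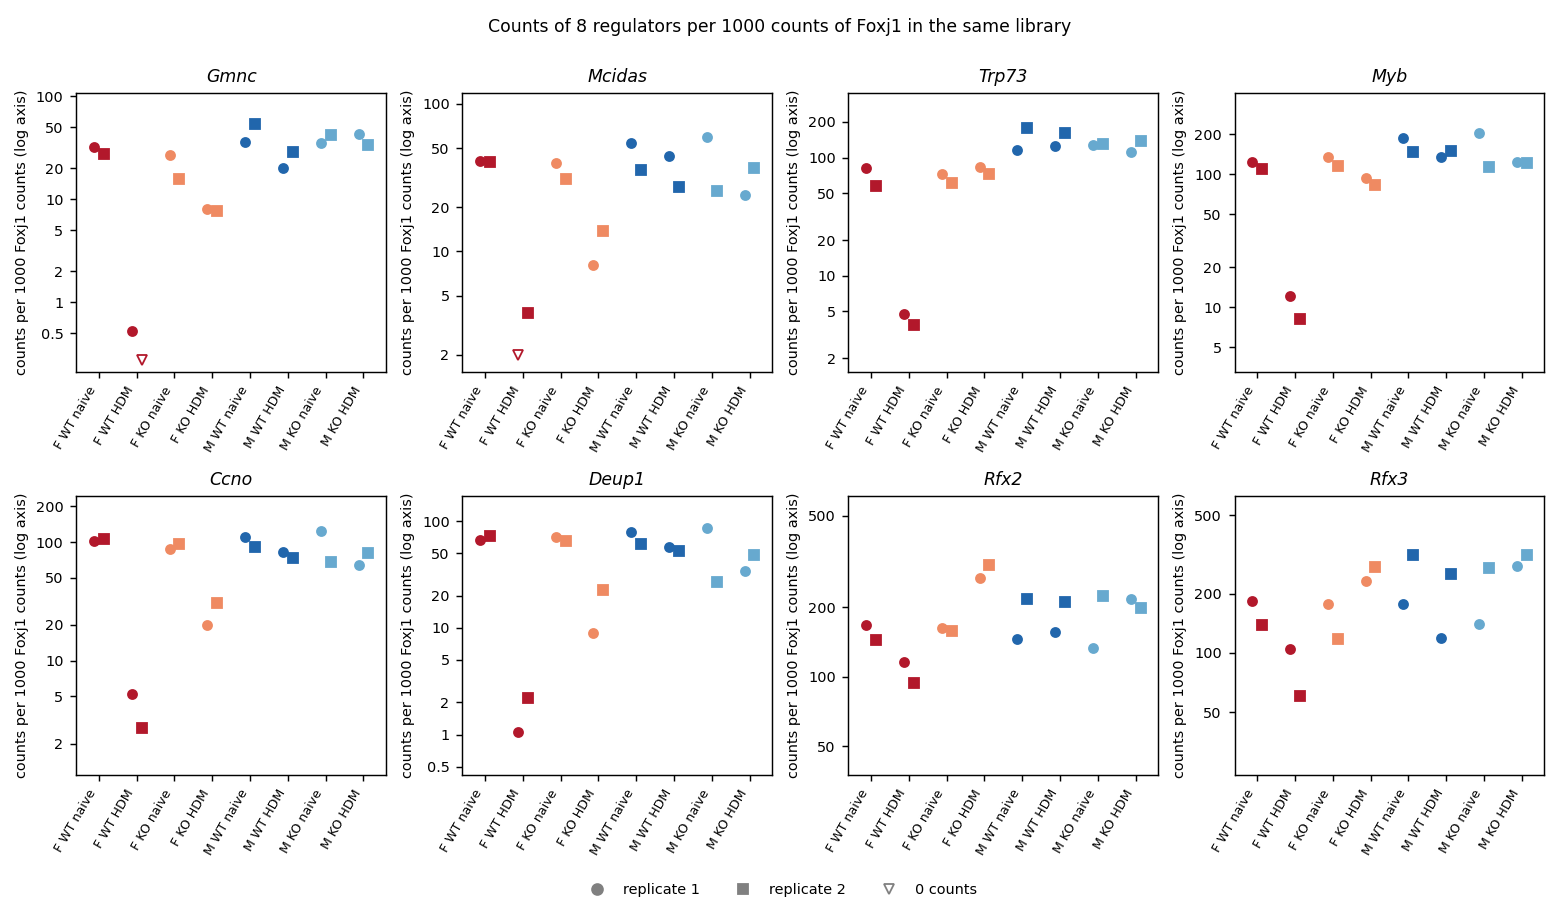
Counts of 8 genes per 1000 counts of Foxj1 in the same library (log axis), with circles for replicate 1, squares for replicate 2 and open triangles at the lower edge for 0 counts. Trp73 in F KO HDM libraries, at 72.4 and 83.7, lay with the naive F libraries, and in F WT HDM libraries it was at 3.83 and 4.73.

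Genes on either side of these regulators were read from fixed lists in the F cultures. Of 45 tested motile cilium genes, 31 fell and 1 rose with HDM in F WT cultures (median log2 fold change -2.99, against 22.4% of all genes lower and 20.6% higher). Lrrc23, an axonemal radial spoke gene, fell from 12.4 and 18.7 CPM to 0.25 and 0.237 CPM (log2 fold change -5.97, SE 0.95, adjusted p = 0.000436 in edgeR). Rsph9, another radial spoke gene, fell by 1.48 (SE 0.17), Kif9, a kinesin gene, by 1.06 (SE 0.13), and Ift172, of intraflagellar transport, by 0.84 (SE 0.12). The gene that rose was Tuba1a (1.60, SE 0.27), an alpha-tubulin gene that many cells use, named here after its value was seen. Dnah5 had 4.94 and 8.25 CPM in F WT naive and 3.87 and 2.79 CPM in F WT HDM libraries. In F KO HDM libraries it had 1.53 and 3.65 CPM. In F cultures labelled KO, 6 of the 45 fell and none rose (median -1.59, against 5.77% of all genes lower and 4.63% higher). The same shares of all genes stand behind each list count that follows. In F WT HDM libraries 3 and 5 of 46 listed genes were at 0 counts.

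Among 28 genes of E2F partners and centriole amplification, 14 fell and 1 rose in F WT cultures (median -0.51), and 1 fell and 1 rose in those labelled KO. Poc1a fell by 1.38 (SE 0.20, adjusted p = 0.000228 in edgeR), Pcm1, of the centriolar satellites, by 0.81 (SE 0.13) and Pcnt, of the pericentriolar matrix, by 0.72 (SE 0.15). Ccna1, a cyclin gene, had 1.56 and 2.47 CPM when naive and 0 and 0.0474 CPM with HDM in F WT libraries (adjusted p = 0.00418 in edgeR). Cdc20b, the neighbour of Mcidas, was at 1.49 and 2.16 CPM and then at 0 counts in both F WT HDM libraries. E2f4 and E2f5, whose products bind multicilin, changed far less, by -0.24 (SE 0.08, adjusted p = 0.0367 in edgeR) and -0.52 (SE 0.13, adjusted p = 0.0062).

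Of 16 tested genes of other ciliated cell transcription factors, 10 fell and 1 rose in F WT cultures (median -1) and 4 fell in those labelled KO. Sox2, an airway progenitor factor, fell by 1.33 (SE 0.09, adjusted p = 1.17e-06 in edgeR), Elf3 by 1.89 (SE 0.14) and Foxa1 by 1.10 (SE 0.09). Of 16 tested genes of the Notch pathway and geminin, 5 fell and 3 rose (median -0.42), and 1 fell in F cultures labelled KO, counts near the shares over all genes. Hey1, a Notch target, fell from 42.1 and 31.4 CPM to 2.66 and 1.8 CPM (log2 fold change -4.03, SE 0.32, adjusted p = 3.69e-06 in edgeR) in F WT cultures and by 1.84 (SE 0.27, adjusted p = 0.0024) in those labelled KO. Hes1 fell by 0.57 (SE 0.09), Nrarp by 1.28 (SE 0.25) and Gmnn, which encodes geminin, by 0.74 (SE 0.14) in F WT cultures. Hey1 and these genes are named for their small p, and the 3 genes of the list that rose are not named here.

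Markers of some other cells also changed with HDM, not all in the same direction as these genes. All 11 tested secretory markers fell in F WT cultures (median -5.02), among them Cbr2 from 6373 and 4820 CPM to 253 and 226 CPM, with Reg3g, Scgb3a1 and Scgb3a2 at log2 fold changes of -5.92, -5.94 and -6.00, and 8 fell in F cultures labelled KO. Of 10 basal markers 5 fell (median -1.12), namely Krt15 (-4.63), Dapl1 (-3.84), Ngfr (-3.17), Trp63 (-2.06) and, named after its value was seen, Krt5 (-1.78), and 1 fell in those labelled KO. Of 10 stromal markers 2 rose in F WT cultures, a share near the 20.6% of all genes: Lum reached 1.04 and 28 CPM and Dcn 2.25 and 45.9 CPM with HDM, so that both rises rest on replicate 2. Acta2 and Pdgfra, of the same list, were higher in both F WT HDM libraries than in both F WT naive ones. Acta2 went from 52.3 and 127 CPM to 272 and 441 CPM, and Pdgfra from 1.02 and 2.2 CPM to 3.58 and 11.8 CPM. In F cultures labelled KO, Acta2 was also higher with HDM, at 129 and 90 CPM against 23.5 and 41.6 CPM when naive. Pdgfra was not, at 0.726 and 0.895 CPM against 1.31 and 0.558 CPM. The median log2 fold change of stromal markers was 0.84 in F WT cultures and -0.63 in F cultures labelled KO. The part of these cell types in the levels of the 9 regulators was not tested, and edgeR called no gene of any list in M cultures, where it called no gene at all and DESeq2 called 2 (WT) and 1 (labelled KO) of all genes.

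**Figure D5:**
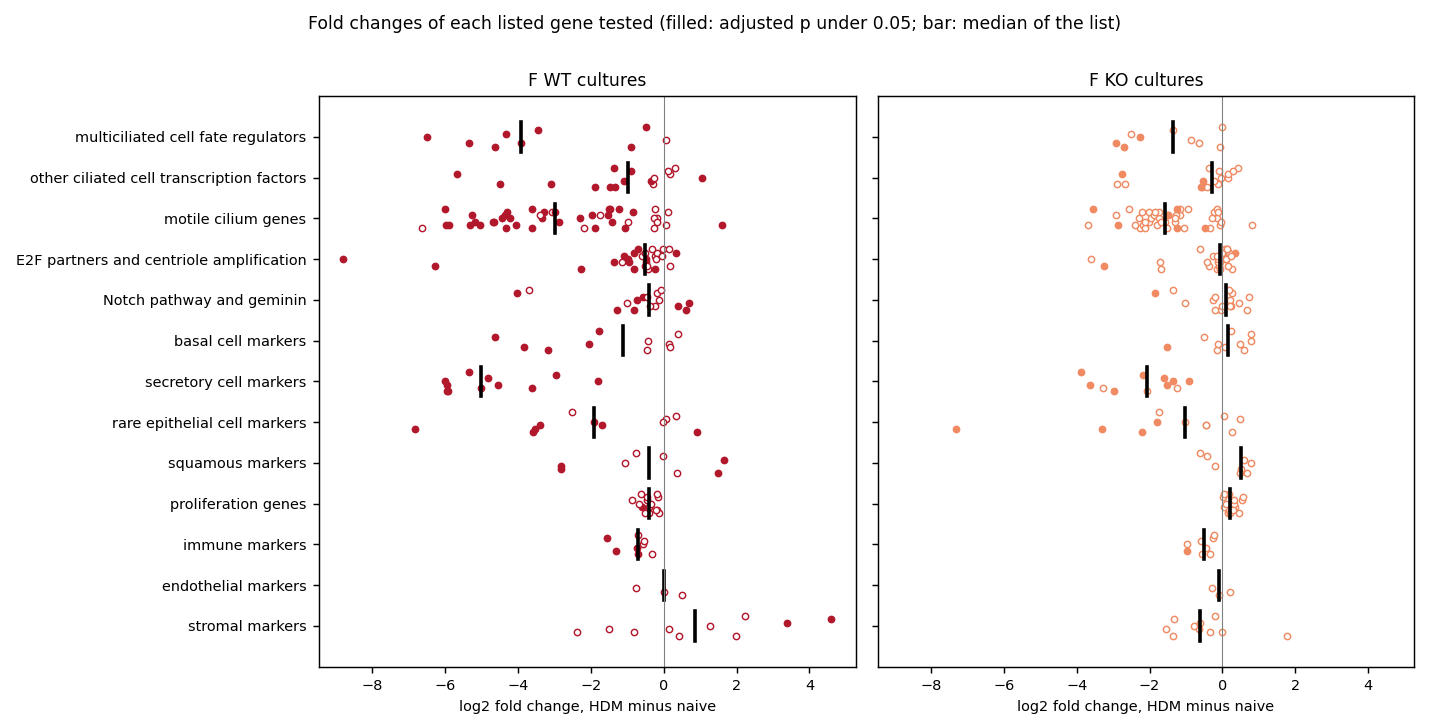
Log2 fold change, HDM minus naive, of each tested gene of 13 lists in F WT (left) and F KO cultures (right), with filled points for an adjusted p under 0.05 (edgeR) and a black bar at each list's median. Medians in F WT cultures were -3.92 for the 9 regulators, -2.99 for motile cilium genes and -5.02 for secretory cell markers.

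Likeness of pattern was measured as Pearson's r over log2 CPM of all 16 libraries, a description only, since the points share groups and the 2 F WT HDM libraries weigh heavily. Ccno was most like Foxn4, a transcription factor gene of multiciliated progenitors (r = 0.99), Deup1 most like the tektin gene Tekt1 (0.99), Mcidas most like Riiad1 (0.98), Gmnc most like Smim6 (0.99), Trp73 most like Fmo6 (0.99) and Myb most like Naip5 (0.97). Rfx2 was nearest to Smpd4 (0.94) and Rfx3 to Dcp1a (0.98). Foxj1 stood apart, with Csrp2 (0.93) as its nearest gene, and its r with Mcidas was 0.33, with Myb 0.22 and with Trp73 -0.06. Without the 2 F WT HDM libraries, a choice made after seeing the data, these became 0.89, 0.91 and 0.53 over 14 libraries, and the genes nearest to Foxj1 were Ttc21a (0.98), Mlf1, Wdr63, Gm973 and Ccdc40 (0.97 each). Mcidas, Ccno and Deup1 kept close to each other with and without those libraries: r was 0.93 and 0.98 for Mcidas with Ccno, 0.97 in both for Mcidas with Deup1, and 0.98 in both for Ccno with Deup1.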

How the data were processed

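MTECs from 8 groups were sequenced, 2 libraries each. The values the authors deposited are counts for each Ensembl gene, unscaled whole numbers. The submitters' processing notes name Trimmomatic 0.36, STAR 2.5.2b, featureCounts, Subread 1.5.2, DESeq2 and GRCm38, with no roles; the annotation release and strand setting are not given in the sources used here, so antisense reads cannot be told apart. Symbols and positions came from GENCODE M21 (48970 of 49315 identifiers matched). The 345 unmatched identifiers carried 0.0277% of counts. All 16 columns matched a sample by name.

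Genes were filtered with filterByExpr by group, scaled with TMM, and tested with edgeR 4.0.16 (quasi-likelihood, R 4.3.3) on 8 group means, two-sided, over 15993 genes and in each of 16 comparisons, with calls at an adjusted p under 0.05. Each SE of an edgeR log2 fold change was derived from that test, as its absolute value divided by the square root of the F statistic. It is a rough guide where counts are near 0. Having 2 libraries in a group limits precision (common biological coefficient of variation 0.142). Counting intervals are exact (Clopper-Pearson) at 95% and, like the floor of 3 counts, cover counting error only. The steps were tested on simulated data. The falls planted there were smaller than those fitted for Gmnc, Mcidas, Trp73, Myb, Ccno and Deup1 in F WT cultures. That test therefore did not cover falls of such size. Alternatives were RLE, upper-quartile and no factors, DESeq2 1.42.0, other filters, only the compared groups, a replicate block, each library left out, and, added later, 2 F WT libraries left out. Log2 CPM values for likeness used a prior count of 2, and CPM values used no prior count.

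The 9 genes and all lists were chosen with earlier results of these data known. Named genes were the 9, Lman1, the 4 genes of each list with the smallest p in F WT cultures, and the 5 genes most like each of the 9 (not all are named, and some listed genes are not reported here); others were added after their values were seen: Tuba1a, Cdc20b, E2f4, E2f5, Krt5, Scgb1a1 and Dnah5.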

Additional observations from a re-analysis of the deposited data

Results flagged for a closer look

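The response to HDM differed between the sexes in WT cultures for 6 of the 9 genes, by edgeR's interaction test. The difference in log2 response, F minus M, was -4.02 for Trp73, -3.23 for Myb, -5.02 for Deup1, -4.31 for Ccno, -4.07 for Mcidas and -5.71 for Gmnc. In F cultures it differed between labelled genotypes for Trp73 (KO minus WT 3.28) and Gmnc (4.23). Lman1, the targeted gene, was called in that F comparison as well (2.67, adjusted p = 0.0238 in edgeR). The call for Mcidas held in 11 of 24 alternatives. Both values for Gmnc rest on 1 count over the F WT HDM libraries and depend on the prior count of the fit.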

How the results depend on the processing

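Number of the 9 genes called, by setting. In HDM minus naive, F WT cultures gave 3 with at least 10 counts in every library, a filter that removes most of the 9. It tested 12984 genes and called 6082, against 6887 of 15993 in the main fit. F cultures labelled KO gave 5 with DESeq2, 6 with no filter, 0 with at least 10 counts, 7 with only the compared groups and 6 with the replicate block, and M cultures labelled KO gave 5 with no filter. Over all genes tested, these settings called 2106, 2717 (of 29397), 1613, 2804 (of 14969) and 2150 in F KO. The main fit called 1664. In M KO no filter called 705 and the main fit 0. For KO minus WT, HDM-treated F cultures gave 9 with no filter, 3 with at least 10 counts, 8 with the replicate block and 1 without the 2 F WT libraries of highest stromal sum, and HDM-treated M cultures gave 6 with no filter and 1 with the block. Over all genes, HDM-treated F cultures had 5149 calls with no filter, 4300 with at least 10 counts and 4726 with the block (main fit 4669). HDM-treated M cultures had 1896 with no filter and 480 with the block (main fit 0). For M minus F, no filter gave 1 in naive WT, 1 in naive KO and 5 in HDM KO cultures, at least 10 counts gave 3 in HDM WT and 0 in HDM KO cultures, and HDM KO cultures gave 2 with DESeq2 and 7 with only the compared groups. Over all genes, no filter called 644, 859 and 4536 there (main fit 16, 30 and 4050). At least 10 counts called 5821 and 3844. In HDM KO cultures DESeq2 called 4295 and only the compared groups 5820. For the sex difference of the response, WT cultures gave 1 with at least 10 counts and 2 without the 2 F WT libraries, and KO cultures gave 3 with no filter. For the genotype difference of the response, F cultures gave 4 with DESeq2, 8 with no filter, 0 with at least 10 counts, 5 with only the compared groups, 4 with the replicate block and 1 without the 2 F WT libraries, and M cultures gave 2 with no filter. For the sex difference over all genes, WT cultures had 3583 calls with at least 10 counts (main fit 3866). KO cultures had 1977 with no filter (main fit 569). For the genotype difference, F cultures had 2391 with DESeq2, 3029 with no filter and 1787 with at least 10 counts. They had 1910 with only the compared groups and 2441 with the block (main fit 1798). M cultures had 668 with no filter (main fit 0). Where no filter raised a count, the cause was not tested. With each library left out in turn, counts ranged from 7 to 8 (F WT), 0 to 4 (F KO), 2 to 6 (KO minus WT, F HDM), 6 to 8 (M minus F, WT HDM), 1 to 3 (M minus F, KO HDM), 5 to 7 (sex difference, WT) and 1 to 3 (genotype difference, F), and stayed 0 elsewhere. The labels do not say that replicate numbers mark shared pools. Correlations of same-numbered deviations ran from -0.164 to 0.483, and with 2 pairs a group the block results are given here only; beside those named, the replicate block gave 7 for the sex difference in WT cultures and changed no other count. A lone remaining library was assumed to vary like the other groups.

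Signs reversed in values that passed no test. Foxj1 in F WT was -0.02 with library totals only, and Rfx3 in M KO was -0.00 with upper-quartile factors, -0.02 with no filter and -0.00 without the 2 F WT libraries. With libraries left out, log2 fold changes (HDM minus naive) ranged from -0.12 to 0.25 for Foxj1 in F WT, from -0.16 to 0.10 for Rfx2 and -0.23 to 0.14 for Rfx3 in F KO, and in M WT from -0.37 to 0.70 for Foxj1, -1.19 to 0.81 for Mcidas, -0.89 to 0.51 for Ccno, -0.77 to 0.64 for Myb, -0.08 to 0.41 for Rfx2, -0.13 to 0.33 for Trp73 and -0.87 to 0.57 for Deup1. In M KO they ranged from -2 to 0.08 for Mcidas, -0.07 to 0.07 for Rfx3 and -2.12 to 0.42 for Deup1. Rfx2 in F WT was called in 16 of 25 settings.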

Other observations

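In F WT cultures 22.4% of all genes fell and 20.6% rose with HDM, and in F cultures labelled KO 5.77% and 4.63%. Of 11 tested markers of rare epithelial cells, 6 fell and 1 rose with HDM in F WT cultures. The summed CPM of the 12 listed rose, from 82.9 and 60.9 to 135 and 105. Among those that fell, the tuft cell factor gene Pou2f3 fell by 3.40 (SE 0.66, adjusted p = 0.00167 in edgeR), and Ascl3, an ionocyte factor, had a log2 fold change of -3.53 (SE 0.87, adjusted p = 0.00654). Both were at or under the floor of 3 counts in F WT HDM libraries, Pou2f3 at 0.125 and 0.0474 CPM and Ascl3 at 0 and 0.142 CPM. Foxi1, another ionocyte factor, was at 0.618 and 0.337 CPM in F WT naive libraries and at 0 counts in both F WT HDM and both F KO HDM libraries. In F cultures labelled KO 4 of the 11 fell. Of 8 squamous markers 2 fell and 2 rose in F WT cultures, near those shares: Krt13 and Krt4 fell by 2.81 and 2.82 (SE 0.42 and 0.46) while Sbsn rose by 1.66 (SE 0.37) and Ivl went from 2.51 and 7.37 CPM to 15.7 and 12.7 CPM (adjusted p = 0.0343 in edgeR), and no squamous marker was called in F cultures labelled KO. Of 8 tested immune markers 4 fell in F WT cultures, with Lyz2 at -1.55 (SE 0.18) and Cd68 at -1.32 (SE 0.24), and 1 fell in F cultures labelled KO. Of 15 proliferation genes 1 fell in F WT cultures, Mcm2 (-0.61, SE 0.20), and none was called in those labelled KO, and none of 3 tested endothelial markers was called by edgeR in either.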
